A study of Mus musculus with 69 samples.

Results

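The extracellular matrix and fibrosis genes are a list of 40 genes that code for collagens, elastic fibre proteins, adhesive glycoproteins, proteoglycans, crosslinking enzymes, growth factors and fibroblast markers. Members were found by matching the transcript accession of each probe to a RefSeq gene name, and 39 of the 40 were measured among 17628 genes. Lox, the founding lysyl oxidase, had no probe whose accession matched, and Ctgf is named Ccn2 in RefSeq. They were read in lungs of female C57BL/6 mice instilled with nanosized TiO2, by particle, dose and day.

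The lung matrix is made by fibroblasts, smooth muscle, endothelium and epithelium. Fibrillar collagens carry tensile load, elastin and fibrillin give recoil, and collagen IV and laminins form the basement membranes under the airway lining and capillaries. Ligands of the TGF beta family are known to raise collagen synthesis and to turn fibroblasts into contractile cells marked by Acta2, and lasting deposition of collagen is what is called fibrosis.

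Mice arrived at 5 to 7 weeks of age, were acclimatised for 1 to 3 weeks and received 1 intratracheal instillation. The 14 groups were vehicle (water with 2% serum), NRCWE-001 (uncharged TiO2) at 18, 54 or 162 µg and NRCWE-002 (positively charged TiO2) at the same doses, each with lungs taken on day 1 (24 h) or day 28. Each group held 5 mice, except vehicle on day 28 with 4, and each mouse was hybridised on 1 of 69 two-colour Agilent arrays. Lung RNA carried Cy5 and a commercial pool of mouse reference RNA carried Cy3 on every array, so dyes were not swapped. A level below is the log2 ratio of lung to reference, and a difference is a difference of mean log2 ratios. RNA came from a small piece of frozen lung with all its cell types, so fewer cells of a type and less RNA per cell cannot be told apart.

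The arrays lay on 18 slides scanned on 12 days, and from 61.4 to 87.8% of spots stood well above background. The 3 arrays of slide 4 (replicate 2 of NRCWE-002 at 18, 54 and 162 µg, day 28) stood apart, with median correlations to the other arrays of 0.852 to 0.896, against 0.869 to 0.973 on the other slides. The array at 0.869 was replicate 2 of NRCWE-001 at 18 µg, day 1. Slide 6 (replicate 2 of vehicle and replicate 1 of each NRCWE-001 dose, day 28) had 0.921 to 0.936. Of the measured members, 36 were well above background on all 69 arrays, and Fap, Fbln5 and Vcan were so on 36, 30 and 62 arrays. All 8 lung epithelium markers, surfactant protein C (Sftpc) among them, were well above background on all 69 arrays.

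Slide 4 touched the matrix genes directly. On its 3 arrays 11 members lay more than 0.5 above the other arrays of their group and 1 member lay more than 0.5 below, whereas 9.30% and 8.32% of all genes did. Bgn (biglycan, a small proteoglycan of collagen fibrils) was 2.09 to 2.36 higher there, Fn1 (fibronectin) 1.17 to 2.15, Col1a1 (the main chain of type I collagen) 0.81 to 1.68 and Col18a1 0.72 to 1.23. Ctgf (a matricellular target of TGF beta) was 0.53 to 0.93 lower on the log2 scale. On slide 6, which held a day 28 vehicle mouse, mean deviations from the group means were 0.94 for Bgn, 0.52 for Col4a2, -0.68 for Lum and -0.72 for Tgfb2. Whether the mouse, the RNA or the slide set these levels was not tested. The main results on NRCWE-002 at day 28 are given also without the 3 arrays of slide 4.

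**Figure D1:**
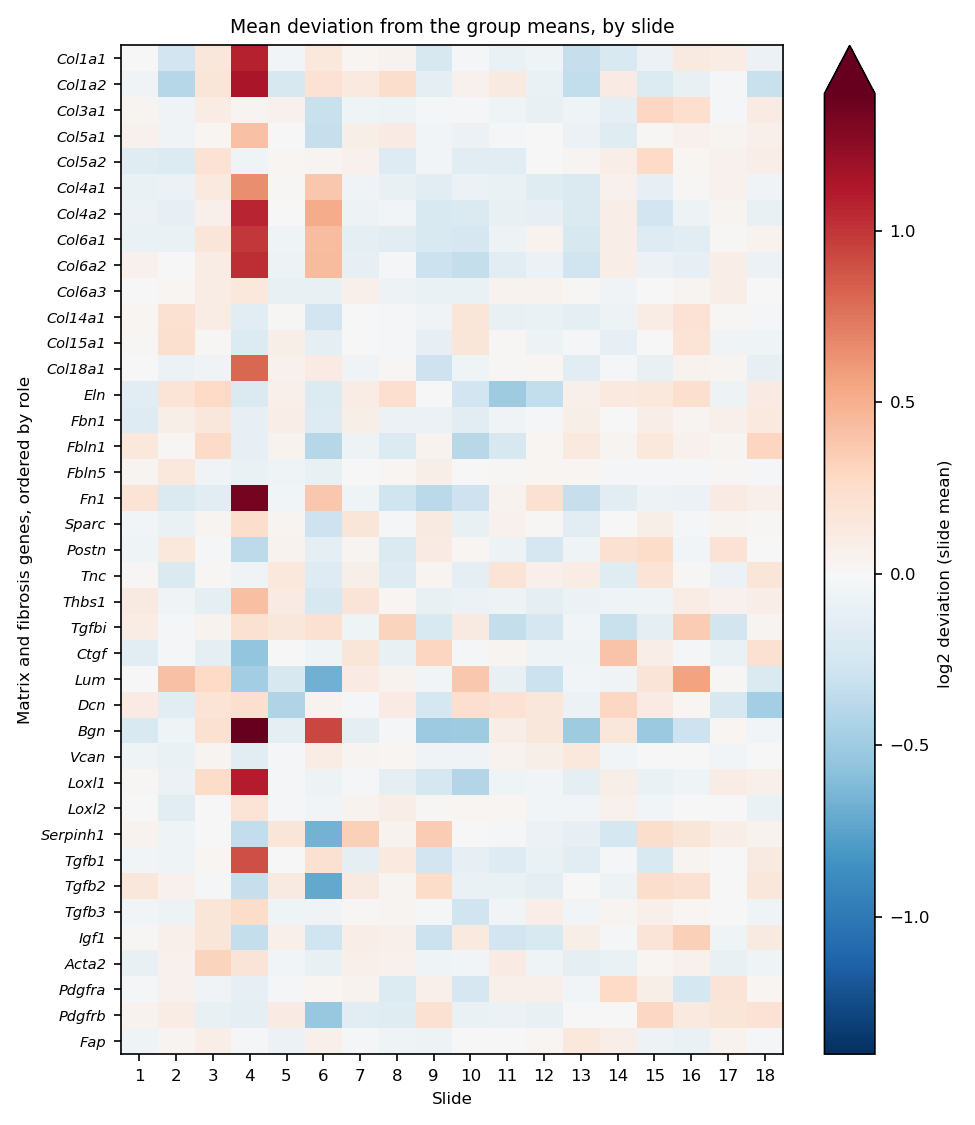
Mean log2 deviation from the group means of each of the 39 genes (rows, ordered by role) on each of the 18 slides (columns), where red is higher and blue is lower. Slide 4 is the darkest column, with Bgn, Fn1, Loxl1, the collagen I and IV chains, Col6a1, Col6a2, Col18a1 and Tgfb1 high and Ctgf low.

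Promoters are shown for Col18a1, Tgfbi and Fbn1, whose mean levels at 162 µg on day 1 lay above vehicle with both particles. Each run is the 250 bases before an annotated RefSeq start (GRCm38.p6), read 5′ to 3′ on the strand of the gene, and capitals mark matches, on either strand, to the TATA box letters (TATAAA), the CCAAT box (CCAAT), the GC box (GGGCGG) or the letters bound by AP-1 factors (TGACTCA). They lie at chr10:77166531-77166780 (minus strand, the first of the Col18a1 starts), chr13:56609336-56609585 (plus strand, Tgfbi) and chr2:125506439-125506688 (minus strand, Fbn1).
Col18a1: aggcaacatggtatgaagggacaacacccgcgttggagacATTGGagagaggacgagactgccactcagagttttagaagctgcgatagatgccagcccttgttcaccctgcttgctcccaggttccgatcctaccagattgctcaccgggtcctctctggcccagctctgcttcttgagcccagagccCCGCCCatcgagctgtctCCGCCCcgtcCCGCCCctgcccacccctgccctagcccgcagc
Tgfbi: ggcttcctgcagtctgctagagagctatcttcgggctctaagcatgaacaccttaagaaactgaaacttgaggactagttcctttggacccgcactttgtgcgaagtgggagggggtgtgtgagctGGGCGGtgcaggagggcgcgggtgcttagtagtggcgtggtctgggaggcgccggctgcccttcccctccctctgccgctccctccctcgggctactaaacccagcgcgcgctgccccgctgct
Fbn1: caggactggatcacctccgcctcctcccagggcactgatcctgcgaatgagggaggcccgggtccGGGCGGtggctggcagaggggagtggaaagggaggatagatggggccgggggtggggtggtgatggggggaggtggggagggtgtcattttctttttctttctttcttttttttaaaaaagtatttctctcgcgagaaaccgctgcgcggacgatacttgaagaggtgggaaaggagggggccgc
All 3 windows held the GC box letters GGGCGG, at 3 places in Col18a1 and 1 place each in Tgfbi and Fbn1. A second annotated start of Col18a1 (chr10:77113706-77113955, minus strand) held none of the 4 motifs. Over the 31 windows of 25 measured members, GGGCGG occurred in 51.6%, against 32.7% of 32851 windows of all genes. CCAAT occurred in 25.8% against 33.8%, TATAAA in 16.1% against 12.4% and TGACTCA in 3.23% against 4.46%. Member windows had a median GC content of 57.6%, and all windows 52.4%.

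At the highest dose on day 1, no member passed the test (limma, Benjamini-Hochberg adjusted p under 0.05 over all genes) for either particle. Of all genes, 0.579% passed with NRCWE-001 and 0.596% with NRCWE-002. At an unadjusted p under 0.05, 9 of 39 members stood out with NRCWE-001 (7.07% of all genes) and 9 with NRCWE-002 (8.94% of all genes). Col4a1, Col18a1, Fbn1, Thbs1, Tgfbi and Acta2 were on the higher side in both sets and Fbln1 on the lower side in both, and both sets were set against the same 5 vehicle mice. The median member difference was 0.09 with NRCWE-001 and 0.15 with NRCWE-002, and the median over all genes was 0.01 in each. Where groups are said below not to overlap, the share of all genes without overlap was not counted, and such separations are description only.

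**Figure D2:**
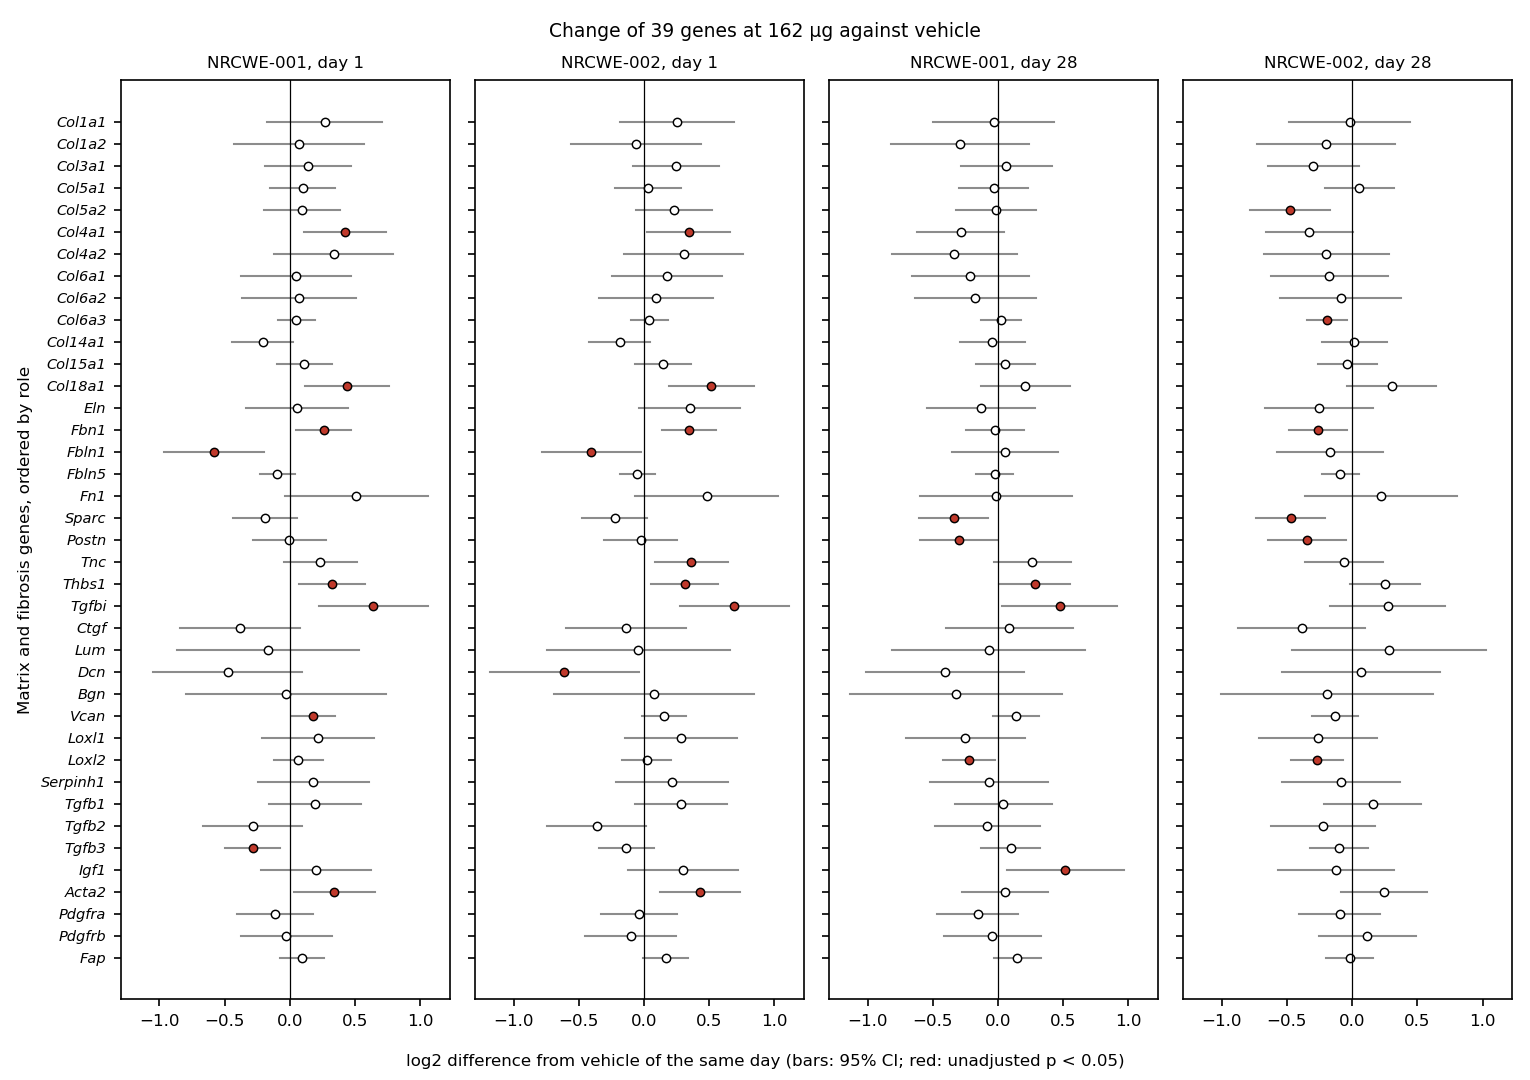
Log2 difference from the vehicle of the same day for 39 genes at 162 µg, in 4 panels by particle and day (circles: difference; bars: 95% confidence interval; red: unadjusted p under 0.05). Col4a1, Col18a1, Fbn1, Thbs1, Tgfbi and Acta2 sit right of 0 on day 1, and on day 28 the red points of NRCWE-002 all lie left of 0.

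The fibrillar collagens, whose chains build the thick fibres of scar tissue, had differences of 0.07 to 0.27 with NRCWE-001 and of -0.06 to 0.26 with NRCWE-002 on day 1. None of the 5 chains reached an unadjusted p under 0.05. Col1a1 differed by 0.27 with NRCWE-001 (95% interval -0.17 to 0.71) and by 0.26 with NRCWE-002 (-0.18 to 0.69). These intervals still include increases of over 0.5 in log2.

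Col18a1, a basement membrane collagen, carries endostatin at its end. In vehicle mice on day 1 its levels were -1.26, -1.37, -1.12, -1.35 and -1.22. With 162 µg NRCWE-001 they were -0.76, -0.90, -0.75, -0.61 and -1.11, so all 5 mice lay above every vehicle mouse. With 162 µg NRCWE-002 they were -0.59, -0.64, -0.43, -0.80 and -1.28, and the last mouse lay within the vehicle range. The 54 µg NRCWE-002 mice were close together, at -0.78, -0.73, -0.76, -0.75 and -0.76. The differences from vehicle were 0.44 (SE 0.16, limma adjusted p = 0.338), 0.52 (SE 0.16, adjusted p = 0.145) and 0.51 (SE 0.16, adjusted p = 0.388) in that order. The 2 probes of Col18a1 gave 0.44 and 0.44 with NRCWE-001 at 162 µg and 0.50 and 0.53 with NRCWE-002.

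The Col18a1 result depended on the estimate of the spread. With slide as a fixed block its differences were 0.45 (limma adjusted p = 0.00907), 0.60 (adjusted p = 0.00656) and, at 54 µg NRCWE-002, 0.51 (adjusted p = 0.0104). Without the 3 arrays of slide 4, none of which is a day 1 array, the differences on day 1 stayed at 0.44, 0.52 and 0.51 and the adjusted p-values were 0.00784, 0.00151 and 0.00795. On slides that held 1 mouse of each group, the difference was 0.50, 0.47 and 0.37 for 162 µg NRCWE-001 and 0.76 and 0.79 for 162 µg NRCWE-002. On day 28 the means lay 0.21 (NRCWE-001) and 0.30 (NRCWE-002) above vehicle at 162 µg. The slide 4 mice of Col18a1, at 0.05, -0.37 and 0.18, were the highest of their groups, and without them the NRCWE-002 difference was 0.06.

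Col4a1, a chain of the collagen IV network, ranged from 1.22 to 1.55 in vehicle mice and from 1.61 to 1.94 with 162 µg NRCWE-001, and these ranges did not overlap. With 162 µg NRCWE-002 it ranged from 1.58 to 1.91. The differences were 0.42 (limma adjusted p = 0.362, and 0.0140 with slide as a fixed block) and 0.34 (adjusted p = 0.488). Col14a1, which coats collagen fibrils, lay on the other side, at -0.21 and -0.18.

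The elastic fibre genes were divided. Fbn1 (fibrillin, the scaffold on which elastin is laid) had levels of -0.09, 0.15, 0.06, -0.08 and 0.27 in vehicle mice. With 162 µg NRCWE-001 they were 0.21, 0.27, 0.47, 0.34 and 0.31, and with 162 µg NRCWE-002 0.34, 0.17, 0.53, 0.44 and 0.54. In each dosed group 4 of 5 mice lay above all vehicle mice. The differences were 0.26 (SE 0.10, limma adjusted p = 0.466) and 0.35 (SE 0.10, adjusted p = 0.125).

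Fbln1, a glycoprotein of elastic fibres and basement membranes, was on the lower side. Vehicle mice had 0.70, 0.61, 0.68, 0.16 and 0.57, mice with 162 µg NRCWE-001 had 0.21, 0.15, 0.05, -0.86 and 0.26, and mice with 162 µg NRCWE-002 had -0.10, 0.08, 0.36, 0.07 and 0.28. With 54 µg NRCWE-002 the levels were -0.14, 0.13, -0.02, -0.08 and -0.11, all below every vehicle mouse. The differences were -0.58 (SE 0.19, limma adjusted p = 0.210), -0.40 (adjusted p = 0.503) and -0.59 (SE 0.19, adjusted p = 0.403). Under the slide block the first value became -0.51 (adjusted p = 0.0397). Within slides Fbln1 differed by -0.49, -0.46 and -0.63 for NRCWE-001 and by -0.26 and -0.20 for NRCWE-002 at 162 µg. Eln (elastin) differed by 0.06 and 0.35 and Fbln5 by -0.10 and -0.05.

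Of the adhesive and matricellular proteins, Tgfbi, a collagen-binding protein named for its induction by TGF beta and made by macrophages as well, had the largest mean difference. Its levels were 3.15, 3.04, 3.14, 3.31 and 2.91 in vehicle mice, 3.73, 3.76, 3.92, 4.27 and 3.07 with 162 µg NRCWE-001 and 3.81, 4.09, 4.00, 3.86 and 3.25 with 162 µg NRCWE-002. In both dosed groups the first 4 mice lay above all vehicle mice and replicate 5 lay among them. The differences were 0.64 (SE 0.21, 1.56-fold, limma adjusted p = 0.208) and 0.69 (SE 0.21, 1.62-fold, adjusted p = 0.125). Leaving out single arrays gave 0.51 to 0.81 and 0.62 to 0.83, and in each case 1 of 10 such fits passed, the one without replicate 5 of the dosed group (adjusted p = 0.0269 and 0.0328). With slide as a fixed block they were 0.70 (adjusted p = 0.0204) and 0.65 (adjusted p = 0.0937), and the within-slide differences were 0.59, 0.72 and 0.78, then 0.50 and 1.08. Tgfbi was read by 1 probe, and fitting the background curve to all spots turned the NRCWE-001 difference to -0.04.

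Fn1, the fibronectin on which collagen fibrils assemble, ranged from -3.16 to -2.81 in vehicle mice, from -2.77 to -2.29 with NRCWE-001 and from -2.75 to -2.30 with NRCWE-002 at 162 µg, so neither dosed group overlapped the vehicle mice. Its differences were 0.51 (SE 0.27, limma adjusted p = 0.773) and 0.48 (adjusted p = 0.652), where the spread also takes in the slide 4 arrays. Without them the adjusted p-values were 0.133 and 0.138. Thbs1 (thrombospondin, an activator of latent TGF beta) differed by 0.32 and 0.31 and Tnc (tenascin, made in injured tissue) by 0.23 and 0.36. Sparc and Ctgf had negative differences with both particles.

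The proteoglycan Dcn (decorin, which binds collagen fibrils) differed by -0.48 and -0.61, within a wide spread (SE 0.29), and Vcan (versican) by 0.18 and 0.15. The crosslinking and folding genes Loxl1, Loxl2 and Serpinh1 had differences from 0.02 to 0.28. Of the ligands, Tgfb3 differed by -0.29 (limma adjusted p = 0.352) with NRCWE-001 and Tgfb1 by 0.19 and 0.28. Acta2, the actin of smooth muscle and myofibroblasts, ranged from -1.0 to -0.79 in vehicle mice, from -0.64 to -0.48 with NRCWE-001 and from -0.92 to -0.05 with NRCWE-002. Its differences were 0.34 (adjusted p = 0.595) and 0.43 (adjusted p = 0.250). The 7 smooth muscle markers had medians of 0.09 and 0.24 in the same comparisons, and their mean level ran from 0.78 to 1.17 in vehicle mice, from 0.88 to 1.31 with NRCWE-001 and from 1.02 to 1.44 with NRCWE-002. Their part in the Acta2 values was not tested.

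With slide as a fixed block, 7 members passed at 162 µg NRCWE-001 (4.38% of all genes), namely Col4a1, Col18a1, Fbn1, Fbln1, Fn1, Thbs1 and Tgfbi. Col18a1 alone passed at 162 µg NRCWE-002 (1.96% of all genes) and at 54 µg NRCWE-002 (1.37% of all genes). Without slide 4, Col18a1 was the one member that passed in each of these comparisons, where 1.06, 1.28 and 0.187% of all genes did. Fn1 with NRCWE-001 had a limma adjusted p of 0.0227, Thbs1 of 0.0203 and Fbn1 of 0.0198 under the block.

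**Figure D3:**
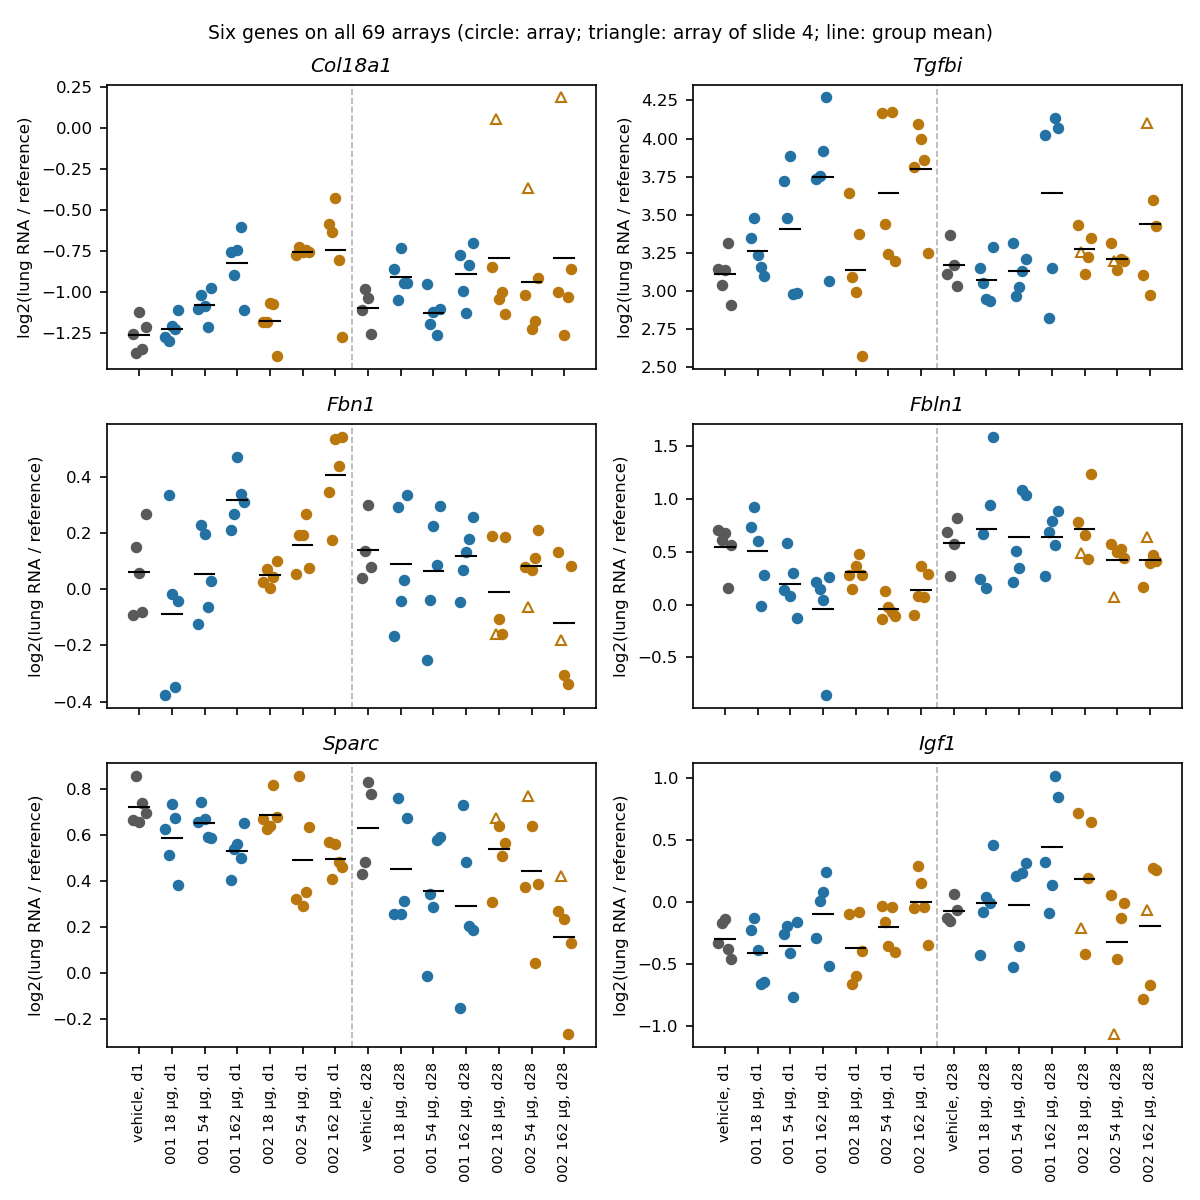
Log2 ratio of lung to reference RNA for Col18a1, Tgfbi, Fbn1, Fbln1, Sparc and Igf1 in every mouse of the 14 groups (circles: arrays; triangles: the 3 arrays of slide 4; lines: group means; dashed line: between day 1 and day 28). Col18a1 is highest on day 1 at 54 and 162 µg NRCWE-002 and at 162 µg NRCWE-001, and on day 28 in the slide 4 arrays.

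At the lower doses on day 1, no member passed. With 18 µg NRCWE-001, 0% of all genes passed and 4.91% had an unadjusted p under 0.05, against 0 of 39 members. Fap (a fibroblast protease) differed by 0.17 and Ctgf by 0.42, both at a limma adjusted p of 1.00. With 54 µg NRCWE-001, 0% of all genes passed and 2 members (4.55% of all genes) were at an unadjusted p under 0.05. They were Fap, with a difference of 0.20 (adjusted p = 0.943), and Dcn, with -0.63 (adjusted p = 0.999).

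With 18 µg NRCWE-002, 0% of all genes passed, and the 2 members at an unadjusted p under 0.05 (2.97% of all genes) were Ctgf and Thbs1. Ctgf ranged from 1.11 to 1.77 against 0.62 to 1.20 in vehicle mice, a difference of 0.67 (SE 0.23, limma adjusted p = 0.999). Thbs1 differed by 0.28 (adjusted p = 0.999), and its brightest probe alone gave -0.09. With 54 µg NRCWE-002, 0.0624% of all genes passed and 6 members (5.83% of all genes) were at an unadjusted p under 0.05, with Col18a1, Thbs1, Tgfbi and Vcan higher and Col14a1 and Fbln1 lower.

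On day 28 no member passed at any dose. With 18 µg NRCWE-001, 0.193% of all genes passed and 3 members (8.16% of all genes) were at an unadjusted p under 0.05. Eln ranged from 1.00 to 2.02 against 2.08 to 2.18 in vehicle mice, so the groups did not overlap, and differed by -0.56 (SE 0.21, limma adjusted p = 0.384). Tgfb3 differed by -0.30 (adjusted p = 0.387), and Acta2 was on the higher side. With 54 µg NRCWE-001, 0% of all genes passed and 1 member (2.9% of all genes) was at an unadjusted p under 0.05. This was Sparc (a collagen-binding chaperone), with a difference of -0.27, and Postn (periostin, which aids collagen crosslinking) followed with -0.24, both at an adjusted p of 1.00.

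With 162 µg NRCWE-001 on day 28, 0.0454% of all genes passed and 6 members (8.63% of all genes) were at an unadjusted p under 0.05, with Thbs1, Tgfbi and Igf1 higher and Sparc, Postn and Loxl2 lower. Igf1, a growth factor of fibroblasts and macrophages, was at -0.13, -0.15, 0.06 and -0.06 in vehicle mice and at 0.32, -0.09, 0.14, 1.02 and 0.85 in dosed mice. It differed by 0.52 (SE 0.22, limma adjusted p = 0.464), mainly through the last 2 mice, and by 0.20 with slide as a fixed block. Tgfbi was likewise divided, with 4.02, 4.14 and 4.07 in 3 dosed mice and 2.83 and 3.15 in the other 2.

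With 18 µg NRCWE-002 on day 28, 0% of all genes passed and 5 members (6.08% of all genes) were at an unadjusted p under 0.05. Acta2 differed by 0.44 (limma adjusted p = 0.720, 0.34 without slide 4) and Postn by -0.37 (adjusted p = 0.783, -0.31 without slide 4). Postn ranged from 2.99 to 3.39, below the 3.49 to 3.66 of vehicle mice. With 54 µg NRCWE-002, 0% of all genes passed and Ctgf was the 1 member at an unadjusted p under 0.05 (4.96% of all genes). Ctgf differed by -0.66 (adjusted p = 0.970, -0.56 without slide 4), and Thbs1 by 0.22 (adjusted p = 0.970, 0.10 without slide 4, and -0.12 by its brightest probe).

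With 162 µg NRCWE-002 on day 28, 0.00567% of all genes passed, and all 6 members at an unadjusted p under 0.05 (6.71% of all genes) were on the lower side, namely Col5a2, Col6a3, Fbn1, Sparc, Postn and Loxl2. The median member difference was -0.10, or -0.16 without slide 4, against -0.01 over all genes. Sparc was at 0.43, 0.48, 0.83 and 0.78 in vehicle mice and at 0.27, 0.42, 0.23, -0.27 and 0.13 in dosed mice, where the second value is the slide 4 mouse, and the groups did not overlap. It differed by -0.47 (SE 0.13, limma adjusted p = 0.271), by -0.55 (adjusted p = 0.0227) with slide as a random block and by -0.60 (adjusted p = 0.0908) as a fixed block. Without slide 4 the Sparc difference was -0.54 (adjusted p = 0.291). Col5a2, a chain that sets the width of collagen fibrils, differed by -0.48 (SE 0.15, adjusted p = 0.492), or by -0.53 (adjusted p = 0.458) without slide 4. Col1a1 differed by -0.03 (95% interval -0.50 to 0.43) with NRCWE-001. With NRCWE-002 it differed by -0.02 (-0.48 to 0.45), but by -0.35 (adjusted p = 0.710) without slide 4.

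Sparc on day 28 also differed with 162 µg NRCWE-001, by -0.34 (SE 0.13, limma adjusted p = 0.396). On slides with 1 mouse of each group the difference was -0.64 for NRCWE-001 and -0.16 and -0.54 for NRCWE-002.

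Whether the 162 µg difference itself changed between the days was tested as a difference of differences, and no member passed. For NRCWE-001, 0% of all genes passed and 5 members (4.35% of all genes) were at an unadjusted p under 0.05, among them Col4a1 with -0.71 (SE 0.23) and Tgfb3 with 0.38, both at a limma adjusted p of 1.00. For NRCWE-002, 0% of all genes passed and 9 members (6.7% of all genes) were at an unadjusted p under 0.05, all with a lower difference from vehicle on day 28 than on day 1. These were Col3a1, Col5a2, Col4a1, Col6a3, Eln, Fbn1, Tnc, Vcan and Loxl2. Fbn1 gave -0.61 (SE 0.15, adjusted p = 0.326) and Col5a2 -0.70 (adjusted p = 0.509), or -0.59 and -0.76 (adjusted p = 0.203 and 0.212) without slide 4. The median over members was -0.13 for NRCWE-001 and -0.25 for NRCWE-002 (-0.31 without slide 4), against -0.02 over all genes in each. Both particles were set against the same vehicle mice on each day, so these results are not independent. Between those vehicle groups 32 of 39 members (82.1%) had a higher mean on day 28, against 53.7% of all genes. The share of the vehicle mice in the lower differences was not tested.

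The mean log2 level over the 39 genes was 0.05 ± 0.02 (SD, n = 5) in vehicle mice, 0.12 ± 0.04 with 162 µg NRCWE-001 and 0.17 ± 0.09 with 162 µg NRCWE-002 on day 1. On day 28 it was 0.16 ± 0.06 (n = 4), 0.12 ± 0.07 and 0.06 ± 0.21, and the last was -0.03 ± 0.08 without slide 4. The 39 genes do not vary independently, and no test was made of this mean.

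Over all 7 conditions, the 34 mice of day 28 were compared with the 35 of day 1. Here 6 members passed (10.6% of all genes) and 15 of 39 had an unadjusted p under 0.05 (26.2% of all genes). Fbln1, Igf1, Col14a1 and Tgfb3 rose and Sparc and Loxl2 fell. Between the vehicle groups alone, 0% of all genes passed and 2 members (5.75% of all genes) had an unadjusted p under 0.05, Col4a1 with 0.38 and Pdgfrb (a receptor of pericytes and fibroblasts) with -0.38, both at a limma adjusted p of 0.837.

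Fbln1 averaged 0.23 ± 0.33 (SD, n = 35) on day 1 and 0.59 ± 0.33 (n = 34) on day 28, a rise of 0.36 (SE 0.07, limma adjusted p = 0.000529). Between the vehicle groups it differed by 0.04. On the 4 slides that held both days Fbln1 was higher on day 28 by 0.89, 0.28, 0.80 and 1.06, and with slide as a fixed block the rise was 0.77 (adjusted p = 0.00195). It was then the 1 member that passed, as 0.0964% of all genes did. On each of these 4 slides the day 1 and day 28 mice had received different particles, and none was a vehicle mouse. Doses were matched on only some of them. Within these slides day and particle can therefore not be told apart, for Fbln1 or for the members below. The fit with slide as a fixed block links the days through these slides alone.

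Igf1 rose by 0.25 (SE 0.08, limma adjusted p = 0.0353), and by 0.44, 0.63, 0.54 and 0.84 within the 4 slides, or 0.63 (adjusted p = 0.107) with slide as a fixed block. Col14a1 rose by 0.15 (SE 0.04, adjusted p = 0.0194) and by 0.34, 0.17, 0.30 and 0.33 within slides, but its 2 probes gave -0.02 and 0.33. Tgfb3 rose by 0.12 (SE 0.04, adjusted p = 0.0490), with within-slide values of 0.34, -0.20, 0.37 and 0.20. The call of Tgfb3 was lost in 9 of 12 other settings and in 42 of 69 fits that each left out a single array.

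Sparc fell by 0.19 (SE 0.05, limma adjusted p = 0.00639), but by 0.47 and 0.13 on 2 of the slides that held both days, with 0.01 and -0.04 on the other 2. The brightest of the 2 Sparc probes alone gave -0.08 (adjusted p = 0.444). Loxl2, an enzyme that crosslinks collagen IV, fell by 0.14 (SE 0.04, adjusted p = 0.00703), with -0.26, 0.18, -0.22 and -0.05 within slides. With slide as a fixed block Sparc differed by -0.16 (adjusted p = 0.637) and Loxl2 by -0.04 (adjusted p = 0.944), so neither call held. Without slide 4, 6 members passed (12.9% of all genes), with Col5a1 in the place of Tgfb3.

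**Figure D4:**
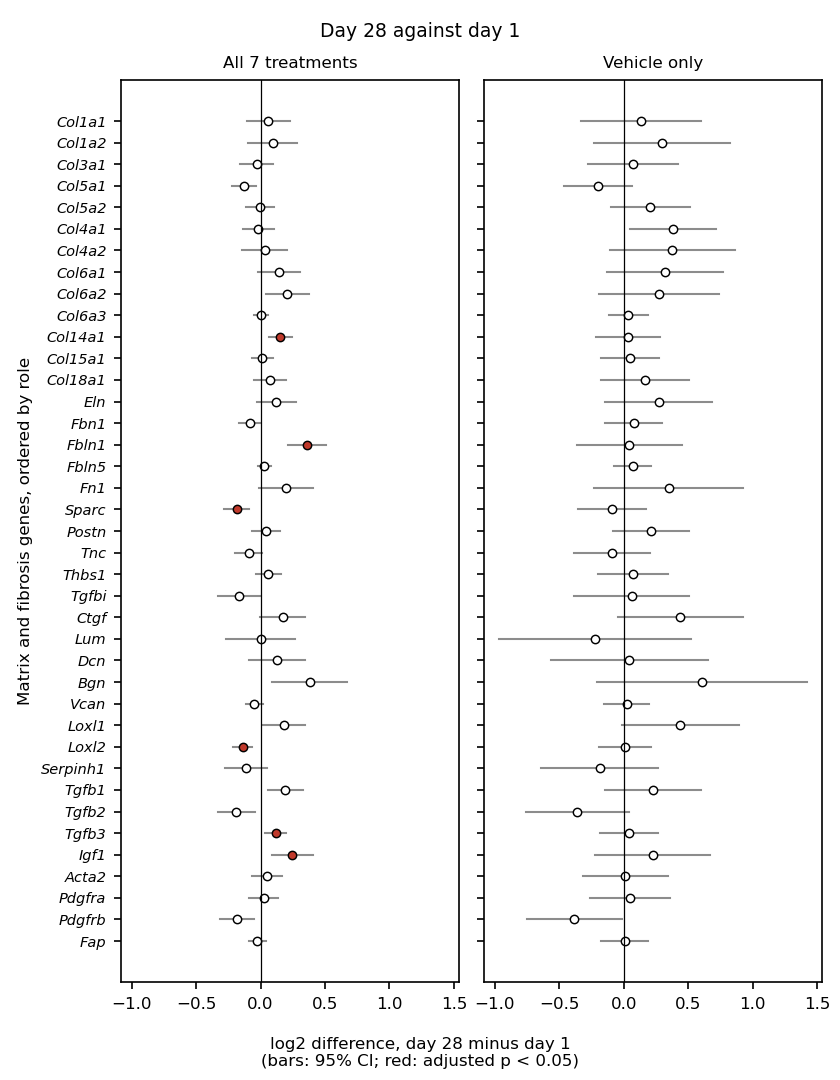
Log2 difference of day 28 from day 1 for the 39 genes, over all groups and for vehicle mice alone (circles: difference; bars: 95% confidence interval; red: adjusted p under 0.05). The 6 red genes in the panel over all groups are Fbln1, Igf1, Col14a1, Tgfb3, Sparc and Loxl2, and no gene is red for vehicle mice.

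The charged and the uncharged particle were set against each other over the 3 doses. On both days most slides that held dosed mice held the charged or the uncharged particle, not both. Differences between particles and between slides can therefore not be well told apart. On day 1 no member passed (0.125% of all genes), and 3 members (7.32% of all genes) had an unadjusted p under 0.05. Tnc was 0.19 (95% interval 0.03 to 0.35, limma adjusted p = 0.568) higher and Col5a1 0.16 higher with NRCWE-002, and Fbln5 differed by -0.10 (-0.18 to -0.02, adjusted p = 0.50). Col18a1 differed by 0.15 (adjusted p = 0.787).

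On day 28, 1 member passed (4.75% of all genes) and 4 had an unadjusted p under 0.05 (22.2% of all genes), with Tnc, Ctgf, Vcan and Igf1 all lower with NRCWE-002. Vcan, a large proteoglycan of provisional matrix, averaged -1.0 ± 0.17 (SD, n = 15) with NRCWE-002 and -0.83 ± 0.11 (n = 15) with NRCWE-001, a difference of -0.18 (SE 0.05, limma adjusted p = 0.0244). The 2 Vcan probes gave -0.37 and 0.02. Without slide 4 the difference was -0.14 (adjusted p = 0.0991), and with slide as a fixed block it was 0.06 (adjusted p = 0.962).

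Members also differed in how much they varied between mice of a group. The median within-group SD was 0.26 over members and 0.17 over all genes, or 0.23 and 0.15 without slide 4. The SD was 0.62 for Bgn, 0.57 for Lum (lumican), 0.46 for Dcn and 0.44 for Fn1, and without slide 4 it was 0.42, 0.57, 0.47 and 0.26 in that order. Fbln5 (0.10) and Col6a3 (0.11) had the smallest SDs, with or without slide 4.

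Partner chains of collagens IV, VI and I varied together across mice. Over 66 arrays without slide 4, deviations from the group mean of Col4a1 and Col4a2 had a Pearson r of 0.889 and a Spearman rho of 0.871. They were 0.759 and 0.704 for Col6a1 and Col6a2, 0.602 and 0.626 for Col1a1 and Col1a2, 0.488 and 0.514 for Col1a1 and Col3a1, and 0.444 and 0.397 for Eln and Fbn1. Each of these had a permutation p of 0.001 or less after adjustment over the 6 relations, and for the first 3 the raw p was 1e-05, the smallest that 100000 permutations can give. Col5a1 and Col5a2 had an r of 0.124 and a rho of 0.0602 (permutation p = 0.3 and 0.6). Leaving out the 2 most distant arrays gave r from 0.140 for Col5a1 and Col5a2 to 0.884 for Col4a1 and Col4a2. After removing slide means the same pairs gave 0.358 and 0.845, with 0.219 for Eln and Fbn1. Col1a1 then had an r of 0.778 with Col1a2 and 0.675 with Col3a1, and Col6a1 and Col6a2 had 0.677. The permutation p-values belong to the deviations before slide means were removed. The arrays share slides and the cell makeup of each lung piece. In RefSeq the annotated start of Col4a2 lies 21 bases before that of Col4a1 in plus-strand order.

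**Figure D5:**
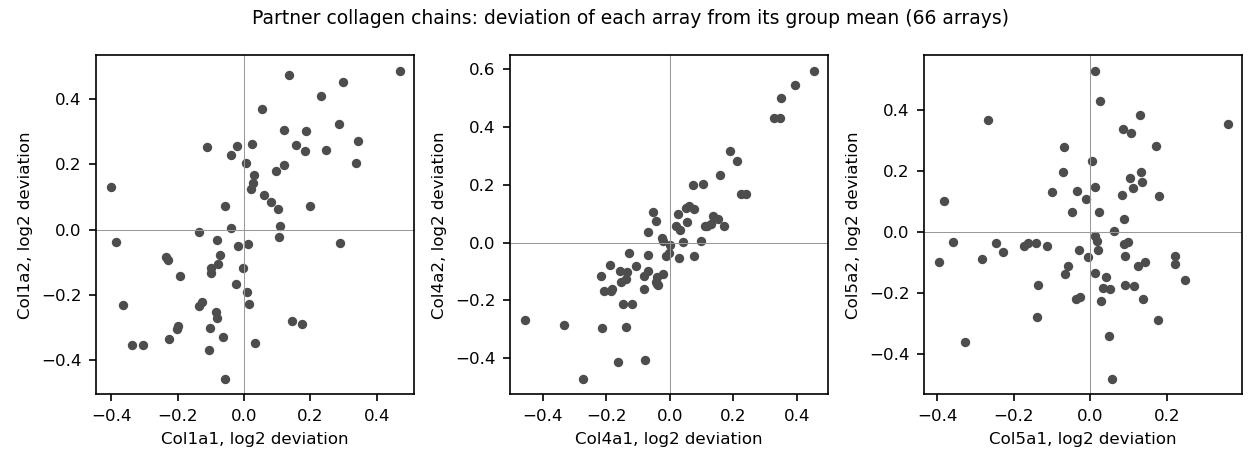
Log2 deviation of each array from its group mean for Col1a1 and Col1a2, Col4a1 and Col4a2, and Col5a1 and Col5a2, over 66 arrays without slide 4 (1 circle per array). Col4a1 and Col4a2 lie close to a line with r = 0.889, and Col5a1 and Col5a2 show no such line with r = 0.124.

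Other genes of matrix biology were read in 6 lists, of collagen processing enzymes (22 genes measured), other collagens (25), basement membrane glycoproteins (14), elastic fibre associated proteins (14), TGF beta signalling (19) and leucine rich or matricellular proteins (20). At 162 µg on day 1 the 1 call was Pcolce2, an enhancer of collagen trimming, which fell by 0.76 with NRCWE-001 (limma adjusted p = 0.0462). No gene of the 6 lists passed at 162 µg on day 28, and list medians at 162 µg ran from -0.14 to 0.04 over both days. Without slide 4 those of NRCWE-002 on day 28 ran from -0.15 to 0.00.

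Between the days, 14 genes of the 6 lists passed, and 13 are named. The prolyl hydroxylases P4ha1 and P4ha2 each rose by 0.16, and in the elastic fibre list Mfap4 rose by 0.39, Ltbp4 by 0.32 and Ltbp3 by 0.26. Fmod (fibromodulin) rose by 0.42, Spon2 by 0.34 and Thbs3 by 0.16, and the signal proteins Smad6 and Smad3 by 0.21 and 0.13. The epithelial anchoring genes Col17a1 and Col7a1 fell by 0.24 and 0.21 and Col8a1 fell by 0.20. With slide as a fixed block none of the 13 passed.

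Between the particles, Col7a1 was lower with NRCWE-002 on day 1 (-0.40), but not with slide as a fixed block (limma adjusted p = 0.701). On day 28, 7 listed genes passed, and 6 are named. Spon2 (0.64), Fbln2 (0.41), Thbs2 (0.29) and Adamtsl4 (0.26) were higher and Loxl3 (-0.23) and Ppib (-0.17) lower with NRCWE-002. None of the 6 passed with slide as a fixed block or without slide 4.

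Markers of other cells were read in the same comparisons. At 162 µg on day 1 the 5 measured neutrophil markers had median differences of 0.65 and 0.49, and their mean level ran from 2.27 to 2.81 in vehicle mice, from 2.47 to 3.84 with NRCWE-001 and from 2.56 to 3.46 with NRCWE-002. Cxcr2, a neutrophil receptor, rose by 0.69 and Siglecf, of alveolar macrophages, fell by 0.92 with NRCWE-001. The 6 cardiac muscle markers had medians of 0.51 and 0.74 on day 1 and of 0.20 and 1.99 on day 28 at 162 µg, and their mean level on day 28 ran from 0.50 to 2.77 in vehicle mice and from 2.14 to 4.09 with NRCWE-002. The 5 mesothelium markers had medians of -0.36 and -0.55 on day 1 and -0.62 and -0.38 on day 28. The 8 fibroblast markers had medians of -0.09 and -0.04 on day 1 and of -0.27 and -0.20 on day 28, without a call. Without slide 4 the day 28 medians with NRCWE-002 were 2.04 for cardiac muscle, -0.44 for mesothelium and -0.16 for fibroblasts. The part of these cells in the matrix gene values was not tested.

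The other marker lists had medians at 162 µg, with NRCWE-001 and NRCWE-002 in order, as follows. On day 1 they were -0.12 and -0.12 for lung epithelium, -0.11 and -0.03 for endothelium, -0.01 and 0.04 for pericytes, 0.01 and 0.05 for cartilage, 0.01 and 0.17 for adipocytes, -0.21 and -0.08 for macrophages, -0.11 and 0.00 for T and B cells and 0.08 and 0.14 for proliferation. On day 28 they lay between -0.46 (endothelium, NRCWE-001) and 0.53 (adipocytes, NRCWE-002). Between the days 13 marker genes passed, among them Scgb1a1 (0.44), Sftpc (0.35) and Sftpb (0.11) of epithelium, Vwf (0.25) and Cldn5 (0.24) of endothelium, Tagln (0.20), Kcnj8 (0.26), Actc1 (0.55), Cidec (0.45) and Csf1r (0.19) higher, and S100a8 (-0.47), Cxcr2 (-0.20) and Cdk1 (-0.08) lower on day 28. None of the 13 passed with slide as a fixed block. Tagln was also 0.49 higher with NRCWE-002 than with NRCWE-001 on day 1. On day 28 that comparison called Ms4a1 (0.68), Cd79b (0.56) and Cd8a (0.24) of T and B cells and Ccnb1 (-0.41), Ccnb2 (0.27) and Plk1 (0.26) of proliferation. Neither Tagln on day 1 nor any of these 6 passed with slide as a fixed block, and without slide 4 Cd8a alone of the 6 passed.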

How the data were processed

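Lung RNA of 69 mice was measured on 2-colour Agilent arrays with Feature Extraction. The authors deposited the scanner intensity of every spot per array, which was used here, and a table of log2 ratios of lung to reference, used as an alternative (correlation with the values here 0.987 to 0.995, column medians -0.059 to -0.0026; its normalization is not given in the sources used here). In limma 3.58.1 (R 4.3.3) median intensities were background corrected by normexp (offset 50, the curve fitted without spots whose local background lay over 10 MAD from the median) and normalized by loess within arrays. Of 41174 probes, 36452 were well above background on at least 4 arrays and were kept, 25826 of them with a RefSeq name by accession. Probes of a gene were summarised by the median, giving 17628 genes.

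One limma model of 14 group means gave 18 contrasts, with Benjamini-Hochberg adjustment over all genes in each and calls at an adjusted p under 0.05. The fit was tested on simulated data. Groups came from the labels, which give no replicate numbers, so replicates are numbered in order within a group. Each array was 1 mouse, and p-values of the main model measure the spread between these mice, which takes in differences between slides. That model treats arrays as independent, although arrays of a slide had a correlation of 0.47 in the fit with slide as a random block. The number of arrays limits the precision. No spot used was marked saturated.

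Members, roles and lists (6 matrix lists, 13 marker lists) were chosen with earlier results of these data known. Named were, per contrast, the called members, or the 2 of smallest p where none was called, and up to 3 called genes per list. No member was called against vehicle at 162 µg, so Col18a1, Tgfbi, Fbn1, Fbln1, Sparc and Igf1, shown by array, and other members named outside the rule were chosen after their values were seen. Alternatives were slide or scan day as a block, the deposited log2 ratios, other background corrections, centring and filters, the brightest probe, leaving out each array and, chosen after seeing the data, leaving out slide 4. Sequences are from RefSeq. Some genes of the lists are not reported here.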

Additional observations from a re-analysis of the deposited data

Results flagged for a closer look

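A single array stood far from the rest of its group for 3 of the 6 genes shown by array. Col18a1 was high in replicate 2 of NRCWE-002 at 18 µg (0.052) and at 162 µg (0.18) on day 28, both on slide 4. Fbln1 was low in replicate 4 of vehicle on day 1 (0.16), in replicate 4 of NRCWE-001 at 162 µg on day 1 (-0.86) and in replicate 2 of NRCWE-002 at 54 µg on day 28 (0.075, on slide 4). Sparc was high in replicate 4 of NRCWE-002 at 18 µg on day 1 (0.82). These are 6 of 98 sets examined (the 6 genes and the mean over members, in 14 groups), and chance alone marks about 5% of them.

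Vcan differed between the particles on day 28 by the test of the difference itself (-0.18), as 1 of 39 members, where 4.75% of all genes passed. The call was lost in 8 of 12 other settings, and with slide as a fixed block the difference was 0.056.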

How the results depend on the processing

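No paired analysis was possible because the labels give no replicate numbers by which mice could be paired; slides, which hold mice of several groups, served as a block. The number of members called at 162 µg NRCWE-001 on day 1 was 0, but 7 with slide or scan day as a fixed block, 6 with slide as a random block, 1 without slide 4 and 0 to 1 when single arrays were left out. At 162 µg NRCWE-002 on day 1 it was 0, but 3 with scan day, 2 with slide as a random block and 1 each with slide as a fixed block, the brightest probe or no slide 4, and 0 to 2 when single arrays were left out. At 54 µg NRCWE-002 on day 1 it was 1 under each block and without slide 4. On day 28 it was 1 at 18 µg NRCWE-001 with scan day, and at 162 µg NRCWE-002 2 with scan day and 1 with slide as a random block. The day difference of the NRCWE-002 effect gave 2 with scan day. Of the 6 calls between days, 1 was made with slide as a fixed block and 3 as a random block, and Sparc, Col14a1, Loxl2 and Tgfb3 lost theirs with scan day. The particle comparison on day 28, with 1 call, gave 15 with median centring, 2 with the deposited ratios and 0 with either slide block, scan day, processed signals, normexp on all spots, no filter or no slide 4, and 0 to 2 when single arrays were left out. Median centring moved the difference in mean level at 162 µg on day 28 to 0.10 (NRCWE-001) and -0.25 (NRCWE-002), and it moved the median of all genes in the day difference of the NRCWE-002 effect to -0.13. Signs turned for Tgfbi at 162 µg NRCWE-001 on day 1 (-0.035, normexp on all spots), for Thbs1 by the brightest probe (-0.089 at 18 µg NRCWE-002 on day 1, -0.12 at 54 µg on day 28) and for Vcan between particles (0.036 with scan day, 0.056 with slide as a fixed block). Of the other values of single genes under these alternatives, 416 kept direction and side of the threshold, 31 lost a call and 15 gained one; with single arrays left out, 775 kept both, 49 lost a call (42 of them Tgfb3 between days) and 2 gained one. The causes were not tested. Fap (36 arrays) and Fbln5 (30 arrays) were often not well above background, which limits their differences.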
